A study of Mus musculus with 33 samples.

Results

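The phagocyte NADPH oxidase is described here through 5 of its subunit genes, Cybb, Cyba, Ncf1, Ncf4 and Rac2, which were chosen by name as subunits of the enzyme and as genes linked to the transcription factor Irf8 in myeloid cells. They are 5 of the 54146 genes listed for each library. Their RNA was followed through all 10 groups and 33 libraries of FACS-sorted microglia, which are brain-resident macrophages, by RNA-seq of SMART-Seq v4 cDNA. All mice were of the strain C57BL/6, and every library was labelled female.

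The IRF8KO experiment at 3 months compared 4 WT with 4 IRF8KO libraries. A set aged 9 months held 3 libraries each of WT, IRF8KO, 5xFAD and 5xFAD/IRF8KO. 5xFAD mice carry neuron-driven transgenes of mutant human amyloid precursor protein and presenilin and form amyloid plaques. A Batf3KO experiment at 3 months compared 3 WT libraries of its own with 3 libraries whose genotype is given as Batf3-/-, which lack another transcription factor of the myeloid lineage. In the conditional experiment, at 3 months, 3 libraries with the IRF8flox allele alone (flox) were compared with 4 that also had Cx3cr1CreERT2 (Cre). Both received tamoxifen on 5 days from postnatal day 12. The design text states that YFP-positive cells were sorted there, from mice with a Rosa26LSL-EYFP reporter. The flox libraries are not labelled with a Cre, and a difference in sorting between flox and Cre was not tested. Cx3cr1CreERT2 is active in microglia and also in other macrophages and in monocytes. No Cre is labelled for IRF8KO and Batf3KO, which are called germline deletions here. The labels do not say which part of either gene is removed, and reads of Irf8 remained in every IRF8KO library.

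The oxidase transfers electrons from NADPH across a membrane to oxygen and makes superoxide, which phagocytes use to kill microbes and microglia release when activated. Cybb encodes gp91phox, the catalytic subunit, and Cyba encodes p22phox, its membrane partner, and each stabilises the other. Ncf1 (p47phox) is the cytosolic organiser, Ncf4 (p40phox) is the cytosolic subunit that binds phosphoinositides on phagosomes, and Rac2 is the small GTPase that completes the active complex. In neutrophils the enzyme is abundant, and in developing myeloid cells Irf8 and PU.1, the product of Spi1, are textbook regulators of Cybb.

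Because Irf8 binds IRF repeats and, together with PU.1, composite sites, the region upstream of the start is shown for the members found among the RefSeq promoter windows, which were Cybb, Cyba and Ncf1 (build GRCm38.p6). Each line gives the 250 bases before the annotated start, 5′ to 3′ on the strand of the gene, and capitals mark matches on either strand to the IRF repeat, which was searched as GAAA, any 2 bases and GAAA. The Cybb stretch is chrX:9469325-9469574 on the minus strand, the Ncf1 stretch chr5:134229626-134229875 on the minus strand, and the Cyba stretch chr8:122432941-122433190 on the minus strand. The Cybb stretch lies inside the span that another annotation, GENCODE M21, gives the gene (to chrX:9487771), so Cybb positions count from the RefSeq start.
Cybb: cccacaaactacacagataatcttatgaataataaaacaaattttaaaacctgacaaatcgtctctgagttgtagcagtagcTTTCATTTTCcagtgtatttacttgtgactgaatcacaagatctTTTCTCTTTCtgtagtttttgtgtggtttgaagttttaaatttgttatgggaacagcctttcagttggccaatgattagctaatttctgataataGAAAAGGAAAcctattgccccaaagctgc
Ncf1: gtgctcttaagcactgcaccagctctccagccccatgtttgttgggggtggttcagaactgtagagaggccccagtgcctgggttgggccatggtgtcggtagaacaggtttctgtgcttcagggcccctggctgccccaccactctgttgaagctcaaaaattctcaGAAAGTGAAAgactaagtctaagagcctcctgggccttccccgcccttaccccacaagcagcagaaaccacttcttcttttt
Cyba: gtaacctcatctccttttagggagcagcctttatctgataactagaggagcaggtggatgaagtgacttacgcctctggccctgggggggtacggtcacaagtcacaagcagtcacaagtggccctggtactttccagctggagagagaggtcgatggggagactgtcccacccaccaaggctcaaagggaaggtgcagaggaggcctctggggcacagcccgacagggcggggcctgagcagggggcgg

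Cybb held 3 matches to the IRF repeat, Ncf1 held 1, and Cyba held none. Counted from the start, the Cybb matches lie at -168 to -159 and -124 to -115 on the opposite strand and at -29 to -20 on the strand of the gene. The Ncf1 match lies at -82 to -73. Over windows of 300 bases, from 250 before to 50 after the start, 3.44% of 32851 RefSeq windows held at least 1 IRF repeat.

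A composite of an ETS core and an IRF core, searched as GGAA, any 2 bases and GAAA, was found once, in Cybb, just after the start and on the opposite strand. The 22 bases around it, chrX:9469304-9469325 on the minus strand, are shown with the match in capitals.
Cybb composite site: ctgtTTTCATTTCCtcatcaga
The match spans positions 4 to 13 and overlaps a PU.1 core, GAGGAA, read on the opposite strand at positions 10 to 15. Composites were in 2.72% of the windows and PU.1 cores in 28.3%. The upstream stretch of Cybb was 34% G and C, against 60% for Cyba and 54.4% for Ncf1. A match to letters is a description of these stretches and not evidence of binding.

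By position the family is scattered. On GRCm38, Cybb spans chrX:9435252-9487771, Cyba chr8:122424776-122432930 and Ncf1 chr5:134220053-134229625, all on the minus strand. Ncf4 (chr15:78244801-78262580, plus strand) and Rac2 (chr15:78559167-78572783, minus strand) are neighbours 0.297 megabases apart, and Cyba lies 1.67 megabases from Irf8. Exons of Ncf1 overlap exons of Gtf2ird2 on the other strand, and the counts ignore strand, so reads of the pair cannot be told apart in the overlap.

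Libraries held 605376 to 18357762 reads in genes, with the shallowest among WT at 9 months. Irf8 itself was lower in every IRF8KO library than in every matching control: 104 to 185 against 253 to 332 CPM (read counts relative to library size, after TMM scaling over all 33 libraries) at 3 months, 15.8 to 138 against 500 to 583 at 9 months, and 77.6 to 98.8 against 522 to 662 in 5xFAD. Batf3 was at 23.1 to 27.7 CPM in the WT libraries of its experiment and at 0.428 to 0.507 in Batf3KO. In the conditional experiment Irf8 was 951 to 1184 CPM in flox and 346, 411 and 480 in 3 Cre libraries, but 1123 in Cre replicate 1, which goes against its label, so values are also given without it. Transcripts of 15 neutrophil marker genes summed to 83111 to 207588 CPM in IRF8KO at 3 months, 57455 to 108527 in IRF8KO and 86134 to 167628 in 5xFAD/IRF8KO at 9 months, and 9448 to 66021 in their WT libraries at 3 months. In the other 6 groups they summed to 0.197 to 113 CPM. The 11 microglial markers were lower in all 3 IRF8KO groups, with sums of 4509 to 12471 CPM against 15048 to 28894 in the WT of the 3-month experiment and 42420 to 61350 in WT and 5xFAD at 9 months. Of the 33 libraries, 16 had at least 10 CPM from 4 Y-linked genes despite the label female. They included 3 of 4 WT and 4 of 4 IRF8KO libraries at 3 months, and Cybb is X-linked. At 9 months they included 3 of 3 WT, 2 of 3 IRF8KO, 1 of 3 5xFAD and 3 of 3 5xFAD/IRF8KO libraries. The 5xFAD group thus differed in this from WT and from 5xFAD/IRF8KO, and the part of this difference was not tested.

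Of the 5 genes, Cybb had by far the widest range (see the plot of levels by library). Its group means ran from 0.337 CPM in flox to 1994 CPM in 5xFAD/IRF8KO, a ratio of 5920, while those of Cyba, Ncf1 and Ncf4 spanned ratios of 4.07 to 4.54 and Rac2 11.2. Ordered by mean, the 3 groups with germline Irf8 deletion came first for Cybb, Ncf4 and Rac2. Each of these groups overlapped the next in order, but for Cybb all 5xFAD/IRF8KO libraries were above all IRF8KO libraries at 3 months. The next group down was in all 3 cases the WT of the 3-month IRF8KO experiment, at 57.6 ± 32.6 CPM for Cybb, which did not overlap the knockouts, and at 185 for Ncf4 and 716 for Rac2, which did. Cyba had a different order, highest in Cre (2100 CPM), that WT group (1836) and flox (1756), with overlapping libraries, and lowest in WT at 9 months (463).

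**Figure D1:**
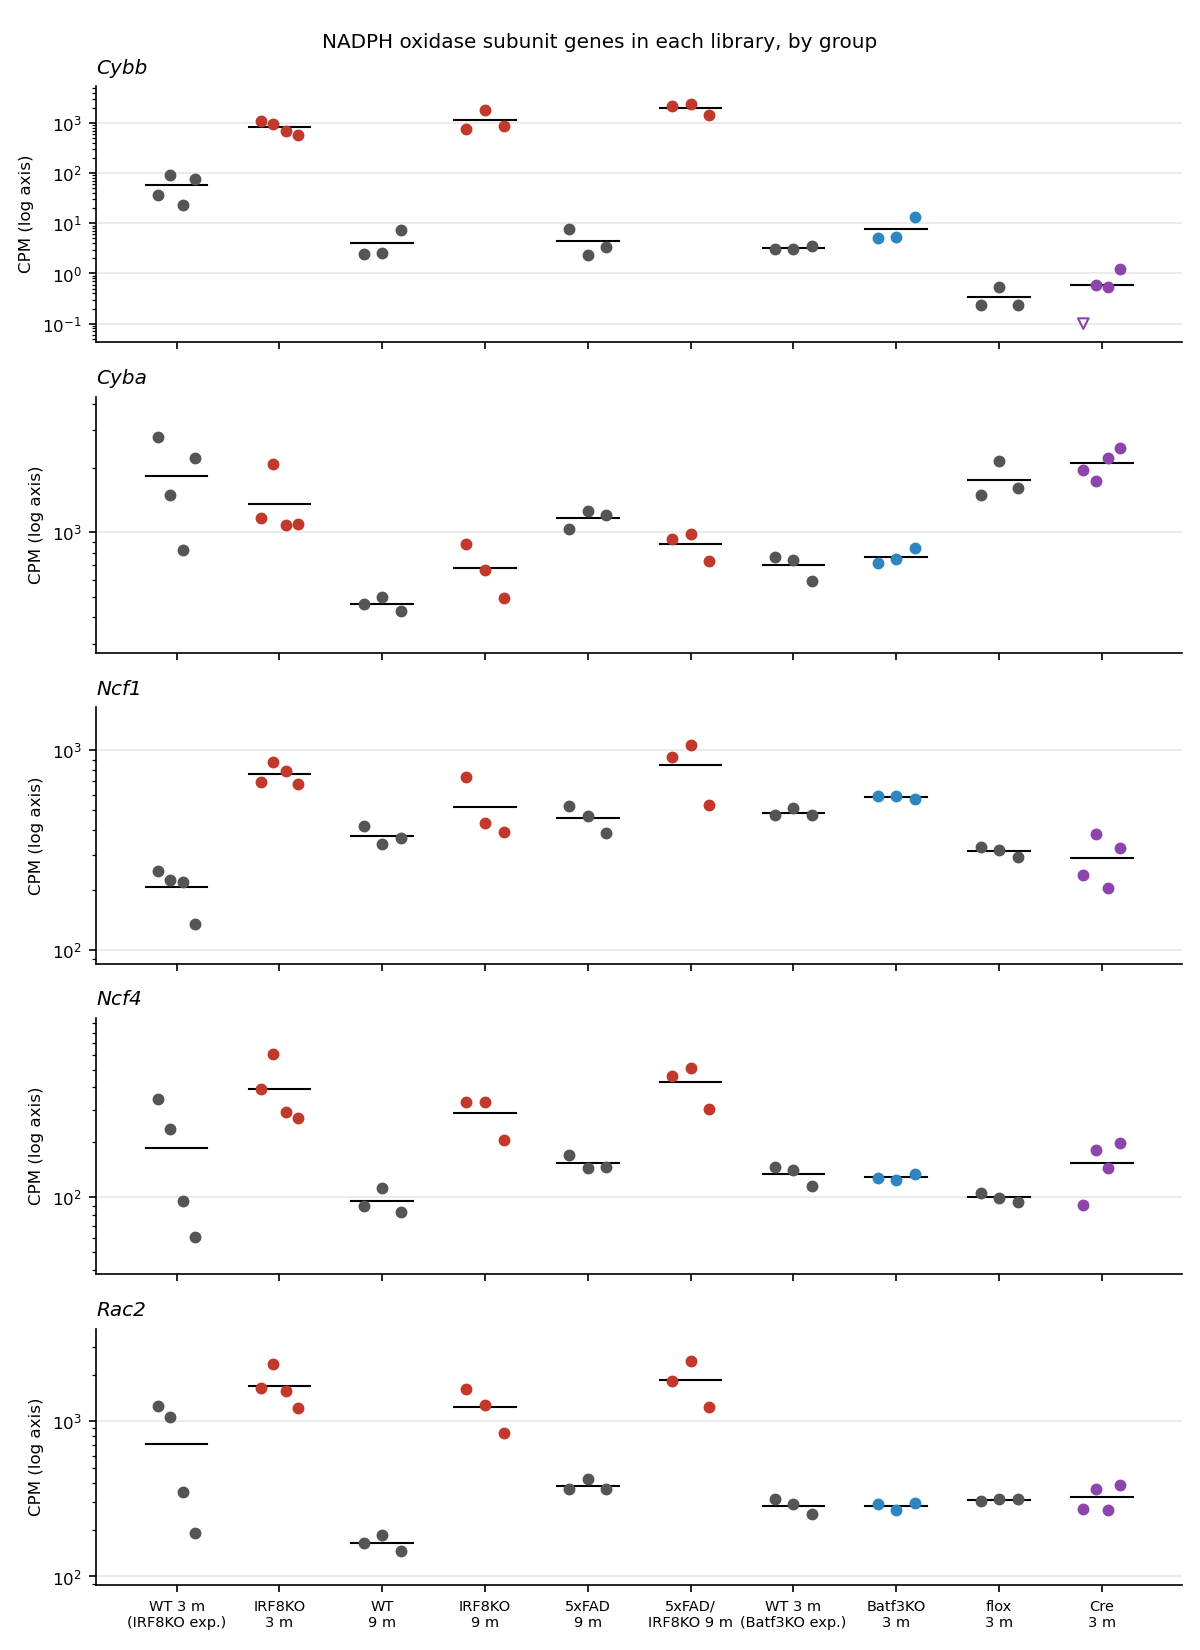
CPM of each subunit gene (log axis) in each of the 33 libraries, by group; points are libraries, black lines are group means, and the open triangle marks the Cre library with 0 Cybb reads, drawn at 0.1. Red points are the 3 IRF8KO groups, in which Cybb lies between 577 and 2366 CPM against 92.3 or less in every other library.

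Corrected for exon length, Cybb was by mean the rarest of the 5 transcripts in every group except IRF8KO and 5xFAD/IRF8KO at 9 months. In the WT libraries of the Batf3KO experiment Cybb stood at 0.561 ± 0.0475 CPM per kilobase (SD, n = 3), against 676 ± 89.4 for Cyba, 133 ± 6.08 for Ncf1, 92.4 ± 10.5 for Rac2 and 66.4 ± 8.02 for Ncf4. In flox it stood at 0.058 ± 0.0309 CPM per kilobase, from 9 reads in 3 libraries. In the 3-month IRF8KO experiment, whose libraries held neutrophil RNA, Cybb stood at 9.92 ± 5.61 in WT and 143 ± 40.6 in IRF8KO. The next lowest members there were Ncf1 at 56.4 ± 13.4 in WT and Ncf4 at 194 ± 77.2 in IRF8KO. In IRF8KO at 9 months Cybb stood at 199 ± 99.5, above Ncf1 at 142 ± 51.7 and Ncf4 at 143 ± 35.9. In 5xFAD/IRF8KO the level of Cybb per kilobase was 343 ± 82, between Ncf1 at 229 ± 75.3 and Rac2 at 593 ± 196.

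In IRF8KO at 3 months the catalytic subunit Cybb and the organiser Ncf1 rose. Cybb stood at 37.5, 92.3, 23.3 and 77.5 CPM in the 4 WT libraries and at 1081, 971, 690 and 577 CPM in the 4 IRF8KO libraries. Every IRF8KO library was above every WT library, and the log2 fold change was 3.77 ± 0.488 (SE; adjusted p = 0.00178 by edgeR's quasi-likelihood test). Ncf1 stood at 249, 223, 219 and 135 CPM in WT and at 695, 871, 789 and 681 in IRF8KO. The groups did not overlap, and Ncf1 was higher by 1.81 ± 0.316 on the log2 scale (adjusted p = 0.00662). These were 2 of 5 members called, both higher. Of the 13121 genes tested in this comparison 7.39% were called, and 4.15% were called higher.

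The other 3 members did not pass the test at 3 months. Cyba, the membrane partner, stood at 2804, 1499, 823 and 2220 CPM in WT and at 1171, 2082, 1085 and 1091 in IRF8KO. These groups overlapped, and the log2 difference was -0.51 ± 0.444 (adjusted p = 0.532). Ncf4 stood at 347, 238, 95 and 60.6 CPM in WT and at 390, 612, 293 and 271 in IRF8KO, with a log2 difference of 1.00 ± 0.521 (adjusted p = 0.275). Rac2 stood at 1249, 1071, 352 and 192 CPM in WT and at 1633, 2353, 1560 and 1222 in IRF8KO, with a log2 difference of 1.16 ± 0.549 (adjusted p = 0.231). For both genes WT replicates 1 and 2 were high and replicates 3 and 4 low, and WT replicate 1 overlapped the knockouts. Spi1, which encodes PU.1, differed by 0.00 ± 0.418 (adjusted p = 0.997), and Irf8 by -1.12 ± 0.299 (adjusted p = 0.0415).

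**Figure D2:**
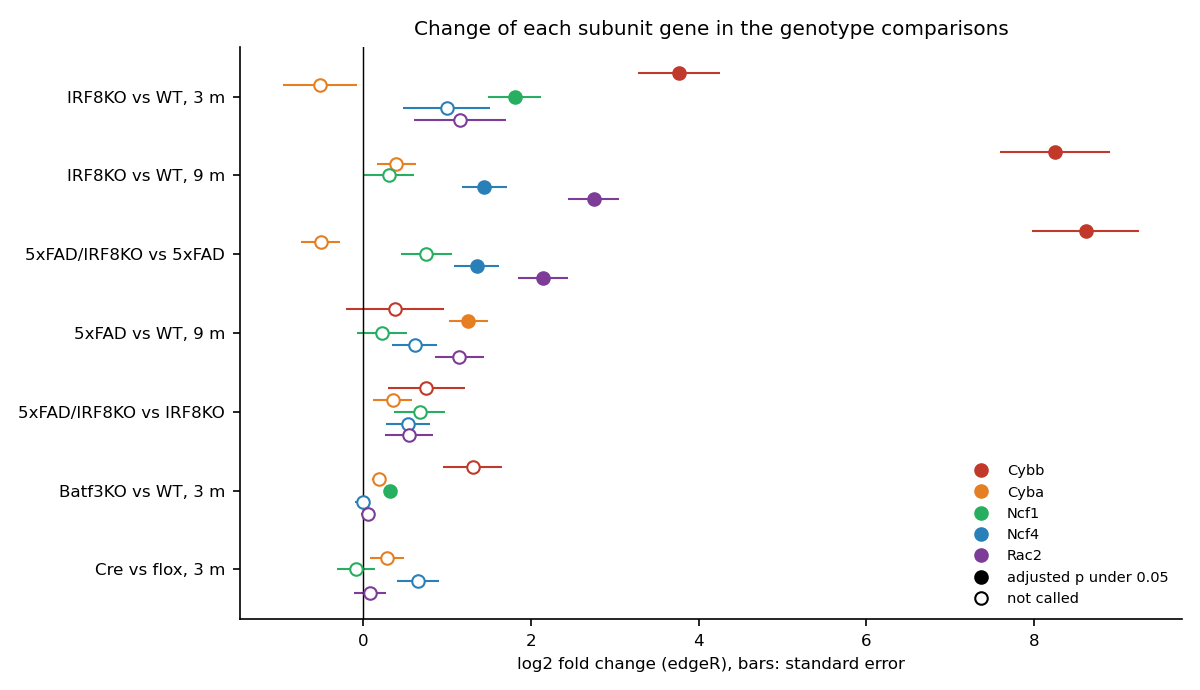
Log2 fold change of each subunit gene (horizontal axis, bars are standard errors) in 7 genotype comparisons; filled points have an adjusted p under 0.05. Cybb has the rightmost point in the 3 comparisons with germline Irf8 deletion (3.77, 8.25 and 8.61) and has no point in Cre against flox, where its counts were too low to test.

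Neutrophil marker RNA differed between these 2 groups. All 15 markers reached a mean of 5 CPM in IRF8KO and 12 did in WT, where Elane had 0 reads. With the logarithm of the summed markers as a covariate, the log2 difference of Cybb was 2.76 ± 0.515 (adjusted p = 0.0275) and it was still called. Cyba was at -1.56 ± 0.44 and not called (adjusted p = 0.0785). Ncf1 was at 1.77 ± 0.441 and no longer called (adjusted p = 0.0584), while Ncf4 and Rac2 were at 0.03 ± 0.694 and 0.27 ± 0.74 (adjusted p = 0.987 and 0.883). With this covariate 371 genes were called in place of 970. The marker sums did not overlap between the groups, at 9448 to 66021 CPM in WT and 83111 to 207588 CPM in IRF8KO. Irf8 deletion and neutrophil RNA thus cannot be told apart by this fit. Markers of monocytes and border macrophages also differed, summing to 849 to 2423 against 231 to 689 CPM and to 1201 to 1704 against 86.5 to 287 CPM. The part of monocytes and border macrophages in these results was not tested. In bulk samples such as these, more cells of a type and more RNA per cell cannot be told apart.

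At 9 months Cybb, Ncf4 and Rac2 rose without Irf8, in WT mice and in 5xFAD mice alike. Cybb stood at 2.5, 2.55 and 7.26 CPM in WT, from 19, 6 and 7 reads, and at 772, 1820 and 873 CPM in IRF8KO. The groups lay far apart, with a log2 fold change of 8.25 ± 0.655 (adjusted p = 5.59e-06). Ncf4 stood at 89.4, 113 and 82.9 CPM in WT and at 333, 331 and 206 in IRF8KO, a log2 fold change of 1.45 ± 0.27 (adjusted p = 0.00194). Rac2 stood at 164, 185 and 145 CPM in WT and at 1618, 1283 and 835 in IRF8KO, a log2 fold change of 2.75 ± 0.306 (adjusted p = 4.82e-05). No library of either gene overlapped between the groups. With 3 of 5 members called higher, 28.3% of the 14604 genes tested were called in this comparison, and 19.6% were called higher. The median log2 difference was 1.45 over the 5 members and 0.25 over all genes tested.

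Cyba and Ncf1 were not called at 9 months. Cyba stood at 461, 499 and 428 CPM in WT and at 882, 670 and 493 in IRF8KO (log2 difference 0.40 ± 0.232, adjusted p = 0.225). Ncf1 stood at 419, 338 and 362 CPM in WT and at 736, 431 and 389 in IRF8KO (0.31 ± 0.303, adjusted p = 0.488). In both genes 1 IRF8KO library, replicate 3, fell among the WT values, and IRF8KO replicate 1 was the highest. Without replicate 1 the log2 difference of Ncf1 was -0.13, and without TMM factors those of Cyba and Ncf1 were -0.02 and -0.09.

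In 5xFAD mice the same 3 members were called. Cybb stood at 7.56, 2.38 and 3.35 CPM in 5xFAD and at 2158, 2366 and 1457 in 5xFAD/IRF8KO, a log2 fold change of 8.61 ± 0.639 (adjusted p = 3.85e-06). Ncf4 stood at 170, 145 and 146 against 464, 512 and 305 CPM, higher by 1.36 ± 0.268 on the log2 scale (adjusted p = 0.00288). Rac2 stood at 365, 424 and 368 against 1829, 2453 and 1240 CPM, higher by 2.15 ± 0.298 (adjusted p = 0.000254). All 5xFAD/IRF8KO libraries were above all 5xFAD libraries for each of them, and 27.8% of the genes tested were called in this comparison and 18% were called higher.

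Ncf1 stood at 525, 471 and 384 CPM in 5xFAD and at 931, 1060 and 531 in 5xFAD/IRF8KO. The groups did not overlap, but the log2 difference of 0.76 ± 0.303 was not called (adjusted p = 0.0818). Cyba was the member whose values lay the other way, at 1036, 1256 and 1211 CPM in 5xFAD and at 935, 987 and 738 in 5xFAD/IRF8KO. Its log2 difference of -0.50 ± 0.232 was not called either (adjusted p = 0.129). Without TMM factors it was -0.63 and called (adjusted p = 0.0479), and without IRF8KO replicate 1 or 3, which share the model, it was -0.58 and called (adjusted p = 0.0427 and 0.0446). Ncf1 was called by DESeq2 (0.77, adjusted p = 0.03), with all 33 libraries in one model (0.87, adjusted p = 0.012) and without 5xFAD/IRF8KO replicate 3 (0.99, adjusted p = 0.029).

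At 9 months the neutrophil markers went from 0.425 to 2.07 CPM in WT, with 10 of 15 at 0 reads, to all 15 at 5 CPM or more in IRF8KO. In 5xFAD they summed to 0.325 to 1.91 CPM, with 6 at 0 reads, Ly6g and S100a9 among them. Irf8 deletion and neutrophil marker RNA thus fell on the same libraries at this age and cannot be told apart. RNA of other cell types moved with the same libraries, between WT and IRF8KO from 0.131 to 33.2 up to 25007 to 187395 CPM for 5 red blood cell markers, from 96.8 to 104 up to 5189 to 9826 for 4 oligodendrocyte markers, from 1.45 to 2.55 up to 561 to 2289 for 4 neuron markers and from 6.97 to 11 up to 686 to 1735 for 8 monocyte markers. The 8 border macrophage markers went from 181 to 217 CPM in WT up to 690 to 798 in IRF8KO. Between 5xFAD and 5xFAD/IRF8KO they went from 96.1 to 166 up to 950 to 1036 CPM. The red blood cell, oligodendrocyte, neuron and monocyte sums were also higher in every 5xFAD/IRF8KO library than in every 5xFAD library. The part of these cells in the results was not tested. Per 1000 CPM of neutrophil marker RNA, Ncf4 lay between 2.95 and 3.58 CPM and Rac2 between 11.3 and 17.6 CPM in all 10 libraries with germline Irf8 deletion. Cybb was less even on that scale, at 4.68 to 9.17 in IRF8KO at 3 months, 8.24 to 16.8 at 9 months and 14.1 to 16.9 in 5xFAD/IRF8KO. In the WT libraries of the 3-month experiment, which also held neutrophil RNA, Cybb was at 0.614 to 2.46 per 1000 CPM, below every knockout library. Ncf4 at 0.917 to 10.1 and Rac2 at 2.9 to 37.3 were spread widely there, and no WT library fell within the range of the knockouts for either gene. Ncf1 was at 3.97 to 8.89 in the knockout libraries and at 2.05 to 23.2 in that WT. Its WT replicates 1 and 2, at 4.07 and 4.46, fell within the knockout range. Cyba was at 5.89 to 13.1 in the knockout libraries and at 29.9 to 87.1 in that WT, above every knockout library. These ratios are descriptions across libraries that share the marker sum as a divisor.

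**Figure D3:**
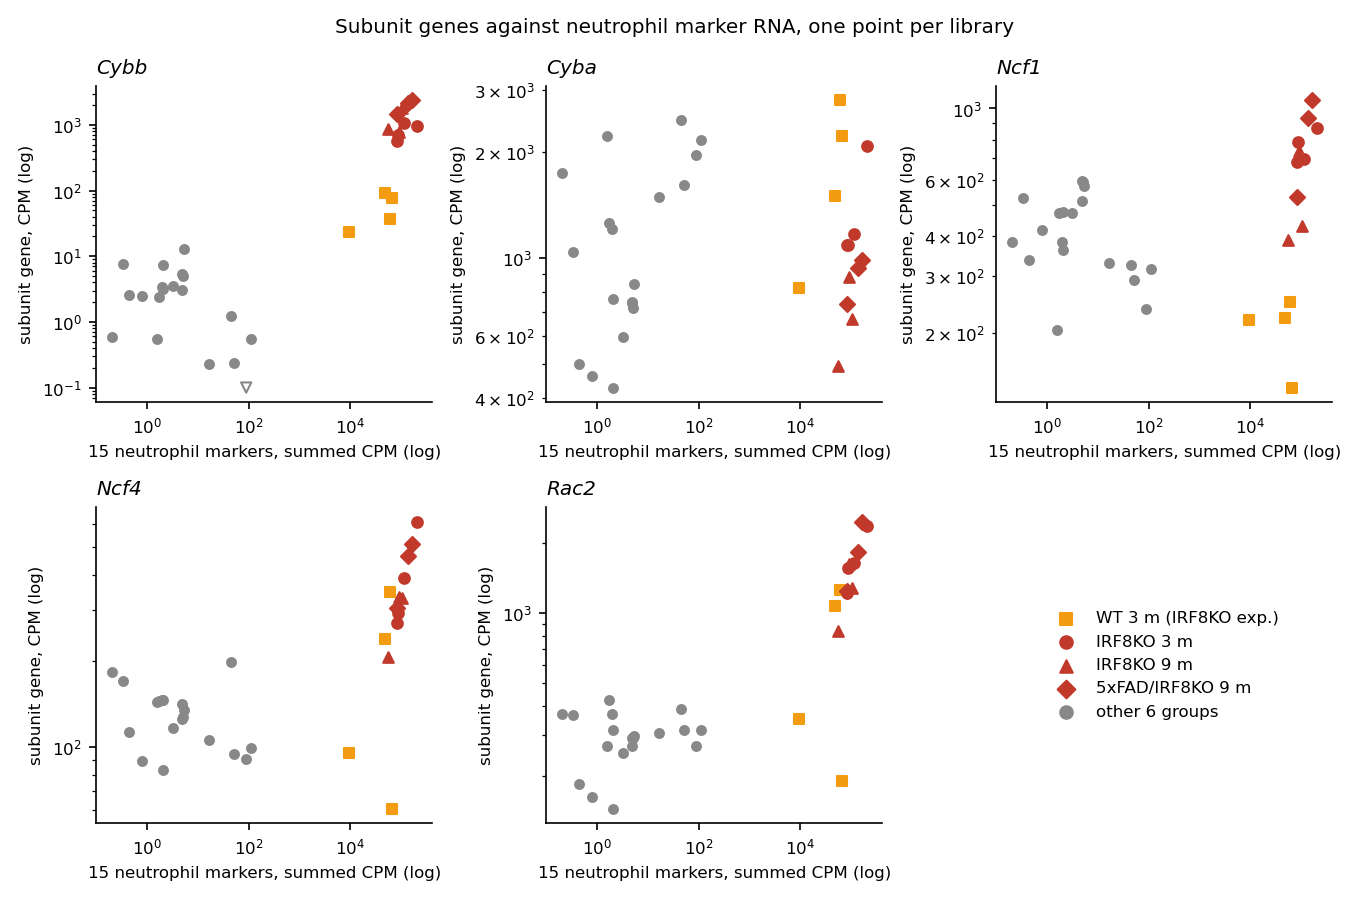
Level of each subunit gene (vertical, CPM, log axis) against the summed level of 15 neutrophil markers (horizontal, CPM, log axis), 1 point per library; the open triangle is the Cre library with 0 Cybb reads, drawn at 0.1. Among the red knockout points Ncf4 and Rac2 rise with the marker sum, and the WT libraries of the 3-month IRF8KO experiment lie below all red points for Cybb and Ncf1.

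The change of Cybb was larger at 9 months than at 3 months, by 4.52 ± 0.765 on the log2 scale in a test of the difference (adjusted p = 0.000422). The knockout means were 830 ± 236 CPM at 3 months and 1155 ± 578 at 9 months, with overlapping libraries. The WT means were 57.6 ± 32.6 and 4.1 ± 2.73 CPM, with none overlapping, and the WT libraries at 3 months held the neutrophil marker RNA given above. Ncf1 went the other way, with a change smaller at 9 months by -1.43 ± 0.427 (adjusted p = 0.0217). Of the 15512 genes tested, 24% differed in this way, 18% with a larger and 5.92% with a smaller value at 9 months. Cyba, Ncf4 and Rac2 gave differences of 0.98, 0.51 and 1.66, which were not called (adjusted p = 0.231, 0.642 and 0.102). The call of Ncf1 was lost when any of the 3 WT libraries at 9 months or IRF8KO replicate 2 or 3 at 9 months was left out (-1.20 to -1.46, adjusted p = 0.0506 to 0.0867). Rac2 was called by DESeq2 (1.83, adjusted p = 0.0431), without the filter (1.63, adjusted p = 0.0164), with all 33 libraries in one model (1.67, adjusted p = 0.0159) and without WT replicate 4 at 3 months (2.02, adjusted p = 0.0214).

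In 5xFAD against WT, where neutrophil markers were near 0 in both groups, Cyba was the 1 member that rose. It stood at 461, 499 and 428 CPM in WT and at 1036, 1256 and 1211 in 5xFAD, without overlap. The log2 fold change was 1.26 ± 0.235 (adjusted p = 0.0232), and 1.99% of the genes tested were called, with 1.81% called higher. Leaving out any single WT or 5xFAD library at 9 months ended the call, with log2 differences of 1.19 to 1.33 and adjusted p of 0.0523 to 0.184, and without TMM factors the value was 0.91 (adjusted p = 0.0996). Rac2 stood at 164, 185 and 145 CPM in WT and at 365, 424 and 368 in 5xFAD, which did not overlap either. It was just short of the threshold, at 1.15 ± 0.291 (adjusted p = 0.0682), and was called without 5xFAD/IRF8KO replicate 3 (adjusted p = 0.0484), by DESeq2 (1.07, adjusted p = 0.00582), by limma voom (1.13, adjusted p = 2.51e-05), without the filter (1.13, adjusted p = 0.0457) and from the 2 groups alone (1.07, adjusted p = 0.000222).

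Ncf4 (0.62 ± 0.267, adjusted p = 0.382), Ncf1 (0.23 ± 0.303, adjusted p = 0.971) and Cybb (0.39 ± 0.584, adjusted p = 0.993) were not called in 5xFAD against WT. The libraries of Ncf4 did not overlap, and it was called by limma voom (0.51, adjusted p = 0.0186) and from the 2 groups alone (0.53, adjusted p = 0.0213). For Cybb both groups rested on few reads, 32 in WT and 114 in 5xFAD, and without 5xFAD replicate 1 its log2 difference was -0.39. The microglial markers summed to 42420 to 52280 CPM in WT and 51904 to 61350 in 5xFAD, and single markers lay in both directions, with Fcrls at 1409 ± 268 and 3016 ± 113 CPM and Csf1r at 10035 ± 2084 and 6268 ± 1285. Y-linked transcripts were present in 3 of 3 WT and 1 of 3 5xFAD libraries, and their part in these comparisons was not tested. These comparisons and those of IRF8KO with WT share the WT libraries.

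Between 5xFAD/IRF8KO and IRF8KO none of the 5 members was called by edgeR, and 1, Ncf1, had an unadjusted p under 0.05. The log2 differences were 0.76 ± 0.454 for Cybb, 0.36 ± 0.232 for Cyba, 0.68 ± 0.303 for Ncf1, 0.54 ± 0.264 for Ncf4 and 0.55 ± 0.286 for Rac2, with adjusted p of 0.374 to 0.591. All were above 0, while 0.164% of genes were called, and the summed neutrophil markers were 57455 to 108527 CPM in IRF8KO and 86134 to 167628 in 5xFAD/IRF8KO. The interaction of 5xFAD with IRF8KO called none of the 5 by edgeR, against 0.438% of genes, and Cyba alone had an unadjusted p under 0.05 (-0.90 ± 0.328, adjusted p = 0.225). DESeq2 and limma voom called no member in either.

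In Batf3KO, where neutrophil markers summed to 4.84 to 5.22 CPM against 2.02 to 4.92 in WT, 1 member was called. Ncf1 stood at 477, 514 and 474 CPM in WT and at 592, 593 and 572 in Batf3KO. The groups did not overlap, and Ncf1 rose by 0.32 ± 0.071 on the log2 scale (adjusted p = 0.0242), while 3.83% of the genes tested were called and 1.41% were called higher. Leaving out replicate 1 or 2 of either group ended the call (0.29 to 0.35, adjusted p = 0.0809 to 0.124). Cybb stood at 3.12, 3.08 and 3.58 CPM in WT and at 5.01, 5.33 and 13.1 in Batf3KO, all of the latter higher. Its log2 difference of 1.31 ± 0.351 missed the threshold (adjusted p = 0.0581), though it was called by DESeq2 (adjusted p = 0.012) and without the filter (1.32, adjusted p = 0.00036). Cyba, Ncf4 and Rac2 differed by 0.19 ± 0.085, 0.00 ± 0.0894 and 0.06 ± 0.0828 (adjusted p = 0.248, 0.994 and 0.781), and Irf8 by -0.08 ± 0.0736 (adjusted p = 0.636).

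In the conditional experiment Cybb remained at the limit of detection. It had 2, 5 and 2 reads in flox (0.23, 0.544 and 0.236 CPM) and 0, 6, 5 and 13 reads in Cre (0, 0.591, 0.55 and 1.22 CPM). Cre replicate 1, in which Irf8 was not reduced, was the library with 0 reads, which allows up to 0.357 CPM. The 3 Cre libraries with reduced Irf8 were above the flox libraries, the lowest of them by a margin of less than 1 read, but these counts were too low for the filter and Cybb was not tested. Without the filter the log2 difference was 0.85 ± 0.985 (adjusted p = 0.809). Cre replicates 2 and 3 had 0.197 and 1.54 CPM of neutrophil markers and replicates 1 and 4 had 89.1 and 45 CPM, against 16.7 to 113 CPM in flox.

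None of the other 4 members was called in Cre against flox by edgeR, which called 0 of 15512 genes (0%), with 1407 at an unadjusted p under 0.05. DESeq2 called 164 genes and limma voom 257, no member among them. Ncf4 had the lowest p of the 4. It stood at 106, 99 and 94.3 CPM in flox and at 91, 182, 144 and 198 in Cre, where replicate 1 was again at the level of flox. Its log2 difference was 0.66 ± 0.248 (adjusted p = 0.413), and without Cre replicate 1 it was 0.86 ± 0.173 and called (adjusted p = 0.00278). Marker sums moved with the same 3 Cre libraries. Border macrophage markers summed to 148 to 343 CPM, against 553 to 608 in flox and 540 in Cre replicate 1. Monocyte markers summed to 19.3 to 20.4 CPM, against 9.58 to 13.4 in flox and 9.51 in Cre replicate 1. Few genes carried these sums. A mean of 5 CPM was reached by 5 of 8 border macrophage markers in flox and 3 in Cre. Of 8 monocyte markers, 0 reached it in flox and 1 in Cre. The part of these sums in the result was not tested. Cyba, Ncf1 and Rac2 differed by 0.29 ± 0.204, -0.08 ± 0.223 and 0.09 ± 0.189 (adjusted p = 0.795, 0.975 and 0.965), and without Cre replicate 1 by 0.34, 0.02 and 0.18, also not called.

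The difference between the conditional and the germline effect at 3 months was called for Ncf1, whose change was lower in the conditional experiment by -1.80 ± 0.384 on the log2 scale (adjusted p = 0.00975). By this test 7.04% of 17361 genes differed, 2.68% in that direction. For Cybb the difference was -2.84 ± 1.04, which edgeR did not call (adjusted p = 0.108) and DESeq2 (-2.89, adjusted p = 0.0138) and limma voom (-3.15, adjusted p = 0.0369) did. The conditional part of the Cybb value rests on 9 reads in flox and 24 in Cre. Cyba and Ncf4 differed by 0.85 ± 0.515 and -0.28 ± 0.648, and with Rac2 they were not called (adjusted p = 0.343, 0.861 and 0.374). Without Cre replicate 1 edgeR still called Ncf1 (-1.70, adjusted p = 0.0164) and did not call Cybb (-2.45, adjusted p = 0.117). Cyba, Ncf4 and Rac2 were then at 0.91, -0.08 and -0.90, also not called.

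The 2 WT groups at 3 months differed in 3 of the 5 members without any genotype between them. In the WT of the IRF8KO experiment Cybb was higher by 4.23 ± 0.586 on the log2 scale (adjusted p = 0.000566) and Cyba by 1.48 ± 0.443 (adjusted p = 0.0217), and Ncf1 was lower, by -1.16 ± 0.287 (adjusted p = 0.0094), with no overlap for any of them. Rac2 was higher by 1.41 ± 0.593 with overlapping libraries and was not called (adjusted p = 0.0801), but it was called by DESeq2 (1.39, adjusted p = 0.0379), by limma voom (1.29, adjusted p = 0.00637), with all 33 libraries in one model (1.32, adjusted p = 0.00759) and without WT replicate 4 of the IRF8KO experiment (1.78, adjusted p = 0.0145). Ncf4 differed by 0.55 ± 0.537 (adjusted p = 0.439). Of 14621 genes 42.8% were called, 26.5% higher and 16.3% lower, and the groups differed in summed neutrophil markers (9448 to 66021 against 2.02 to 4.92 CPM), in Irf8 (253 to 332 against 933 to 1153 CPM) and in Y-linked transcripts (3 of 4 libraries against 0 of 3). They also differed in red blood cell markers (35273 to 131156 against 107 to 213 CPM), oligodendrocyte markers (6116 to 60872 against 322 to 361), neuron markers (328 to 641 against 8.72 to 13) and microglial markers (15048 to 28894 against 69638 to 74809). The call of Cyba was lost when any 1 of the WT libraries of the Batf3KO experiment was left out (1.17 to 1.35, adjusted p = 0.11 to 0.149). Levels set across experiments carry these differences, and their part in the order of the groups was not tested.

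Across the 10 group means of log2 CPM the members split into those that varied together and those that did not. Ncf4 and Rac2 had the highest correlation among the 5 (Pearson's r = 0.97), followed by Cybb with Rac2 (0.91) and with Ncf4 (0.90). Cyba correlated with none of them beyond -0.46. Irf8 ran opposite to Cybb (-0.92), Rac2 (-0.88) and Ncf4 (-0.87), and Spi1 did not (-0.43, -0.18 and -0.14). These are descriptions over 10 groups that include the 3 Irf8 knockouts and differ in depth and in neutrophil RNA.

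Among 11120 genes compared over the same 10 means, those most like Rac2 were Plaur, the urokinase receptor (0.984), Optn (0.984) and Slfn2 (0.981). Those most like Ncf4 were Lta4h, the enzyme that makes leukotriene B4 (0.972), Ptpn22 (0.971) and Stk16 (0.969). For Cybb they were Rnf11 (0.996), Ywhaz (0.992) and Il18rap, an interleukin-18 receptor chain (0.991), for Ncf1 Mcm2, a subunit of the replicative helicase (0.969), Map2k3 (0.965) and Mcmbp (0.960), and for Cyba Cklf (0.982), Svbp (0.977) and Elp5 (0.974).

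Of 19 further genes of the oxidase pathway, 5 rose and none fell in IRF8KO at 3 months, where 7.39% of all genes tested were called and 4.15% were called higher. Dock2, an exchange factor for Rac proteins, rose by 2.00 ± 0.297 (adjusted p = 0.00302; 61.6 ± 11.1 to 257 ± 56.6 CPM). Vav3, another exchange factor, rose by 3.37 ± 0.909 (adjusted p = 0.0421; 3.01 ± 4.15 to 35 ± 10.7 CPM). The others were the integrin chain Itgb2 (1.95), the proton channel Hvcn1 (1.41) and the kinase Prkcd (1.08), named because they complete the count of 5. The median log2 difference was 0.91 over the 19 genes and -0.02 over all genes tested.

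At 9 months without Irf8, 3 of the 19 rose and 3 fell, a share near the 28.3% called over all genes. Prdx6, a peroxiredoxin that also promotes oxidase activity, rose by 4.44 ± 0.232 (adjusted p = 8.01e-07; 28.8 ± 2.76 to 699 ± 110 CPM), and Vav3 rose as well (adjusted p = 0.00937; 0.229 ± 0.214 to 32.6 ± 32.5 CPM). Vav3 lay at 0.145 to 65.2 CPM in the IRF8KO libraries, the lowest of them within the WT range of 0 to 0.425 CPM. At 3 months Prdx6 was not called, at 756 ± 452 CPM in WT and 910 ± 88.5 in IRF8KO (0.21 ± 0.417, adjusted p = 0.808). In the WT of the Batf3KO experiment it was at 50.7 ± 7.78 CPM. Prex1, a Rac exchange factor, changed by -3.24 ± 1.07 (adjusted p = 0.0401; 219 ± 57.4 to 26 ± 13.9 CPM). Cybc1, the chaperone that the gp91phox and p22phox pair needs to be made, changed by -1.69 ± 0.318 (adjusted p = 0.00209; 205 ± 39.9 to 71.6 ± 29.4 CPM). Exons of Cybc1 overlap those of Hexdc on the other strand, so its counts are uncertain. The remaining calls were Arhgdib, an inhibitor of small GTPases of the Rac family (2.67), and the exchange factor Vav1 (-1.25). The median was -0.28 over the list and 0.25 over all genes. Between the 2 WT groups at 3 months, 18 of the 19 were tested. Of these, 3 were called higher and 8 lower in the WT of the IRF8KO experiment, against 26.5% and 16.3% of all genes. Prdx6 and Arhgdib were among the higher, and Prex1, Cybc1 and Vav1 among the lower. Neutrophil marker RNA differed in every comparison with germline Irf8 deletion, and its part in the pathway genes was not tested.

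Without Irf8 in 5xFAD, 8 of the 19 rose and 2 fell, against 27.8% of all genes called and 18% called higher. The largest rises were of Vav3 (0.0271 ± 0.047 to 51.2 ± 19.7 CPM, adjusted p = 0.00228) and Prdx6 (3.44 ± 0.219, adjusted p = 1.57e-06; 62.2 ± 6.91 to 724 ± 39.7 CPM). Cybc1 fell here too (-1.49 ± 0.315, adjusted p = 0.00444), together with Arhgdia, the widely expressed relative of Arhgdib, which changed by -1.11 ± 0.249 (adjusted p = 0.0062). The list had a median of 0.84 against 0.24 over all genes. Neutrophil marker RNA lay on the same 5xFAD/IRF8KO libraries, and its part was not tested.

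In 5xFAD against WT, 2 of the 19 rose and 1 fell, against 1.99% of all genes called. They were Arhgdib (1.22 ± 0.254, adjusted p = 0.0342), Prdx6 (1.03 ± 0.207, adjusted p = 0.0298) and Dock2, which fell (-1.67 ± 0.36, adjusted p = 0.0384). Of the 18 genes tested in Batf3KO, where 3.83% of all genes were called, 1 rose and 1 fell, namely Cybc1 (0.49 ± 0.0738, adjusted p = 0.00235) and the kinase Prkcb (-0.43 ± 0.101, adjusted p = 0.0304). In Cre against flox and in 5xFAD/IRF8KO against IRF8KO edgeR called none of the 19, and 2 genes in each had an unadjusted p under 0.05.

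**Figure D4:**
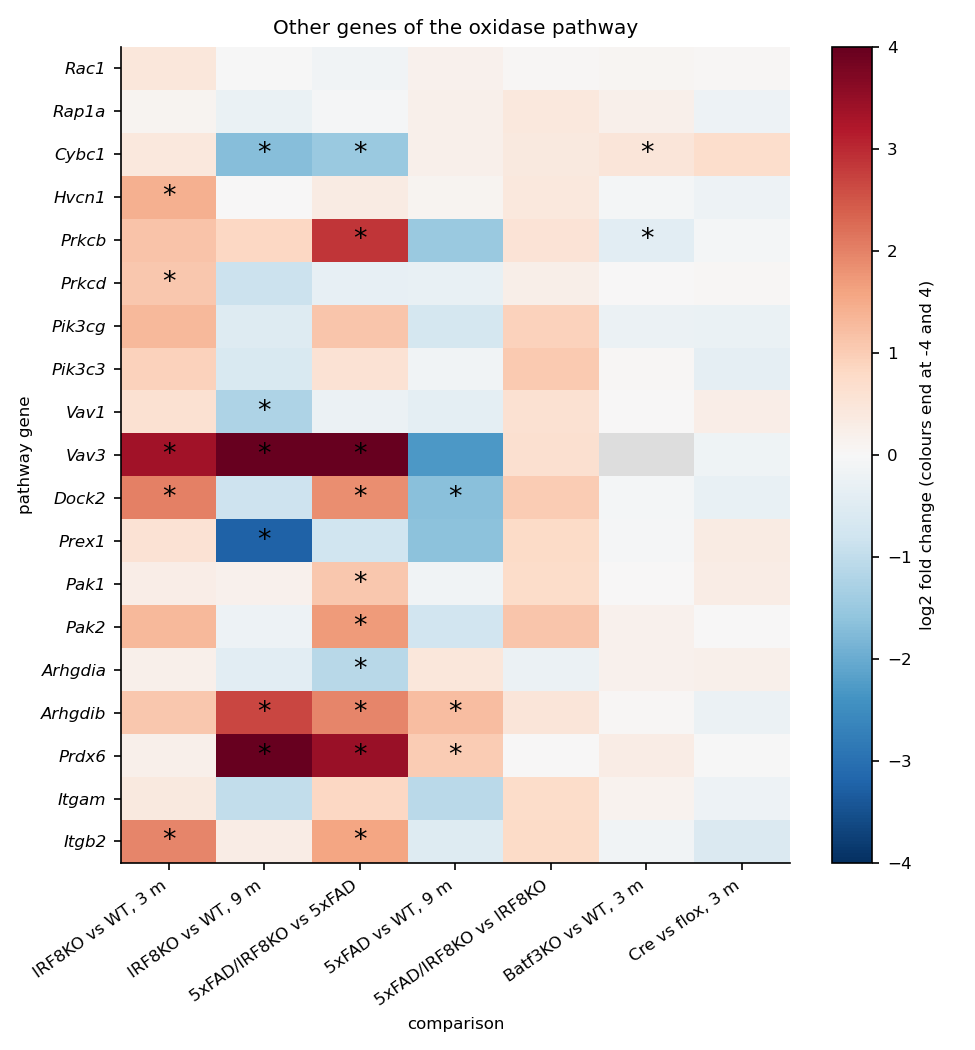
Log2 fold change of 19 other genes of the oxidase pathway (rows) in 7 genotype comparisons (columns); asterisks mark an adjusted p under 0.05, grey was not tested, and colours are capped at 4 in either direction. Asterisks stand in 5, 6 and 10 genes in the 3 comparisons with germline Irf8 deletion, and Cybc1 is blue in the 2 comparisons at 9 months.

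Of 9 genes of other NADPH oxidases and their maturation factors, Noxo1 and Duoxa1 were the 2 with enough reads to be tested in any comparison. Duoxa1, the maturation factor of the dual oxidase Duox1, was at 11.5 ± 2.14 CPM in WT at 9 months and had 1 read in the 3 IRF8KO libraries (adjusted p = 0.00194). In 5xFAD it was at 16.7 ± 6.76 CPM, and in 5xFAD/IRF8KO it had 0 reads in all 3 libraries (adjusted p = 0.000651). Its exons overlap those of Duoxa2 on the other strand. In the conditional experiment its values lay the other way, at 2.73 ± 1.5 CPM in flox and 13.7 ± 9.02 in Cre, and were not called (adjusted p = 0.256). Noxo1, the organiser of the epithelial oxidase, was at 2.77 ± 1.49 CPM in WT at 9 months and had 0 reads in IRF8KO (adjusted p = 0.0201). It was at 3.05 ± 0.313 CPM in 5xFAD and 1.94 ± 1.82 in 5xFAD/IRF8KO, which was not called (-0.74 ± 1.42, adjusted p = 0.749). Its exons overlap those of Tbl3 on the other strand.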

How the data were processed

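RNA of FACS-sorted microglia was measured in 33 libraries. The authors deposited whole-number read counts per gene in the layout of STAR's gene counts, without normalization. The submitters' processing notes name mm10 and, with no role or order, bcl2fastq, STAR 2.5.2b, Picard 2.17.11, Subread and featureCounts. No source used here names the annotation. The column ignoring strand was used, since the first strand column held 49.5% to 50.1% of the reads of both. Unassigned reads stayed out of all tests, and genes took 47.3% to 78.6% of reads per library. At 9 months this share was 74.7% to 77.3% in WT and 77.3% to 78.6% in 5xFAD. It was lower in IRF8KO, at 48.6% to 53.4%, and in 5xFAD/IRF8KO, at 56.8% to 72.0%. In the IRF8KO experiment at 3 months the groups overlapped, at 47.3% to 63.9% in WT and 59.0% to 73.8% in IRF8KO. The part of these differences in the results was not tested. Symbols and coordinates come from GENCODE M21 (52480 of 54146 identifiers with the same version, 67 not found) and sequences from RefSeq GRCm38.p6.

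Groups come from the titles. Genes passing filterByExpr were tested with edgeR 4.0.16 in R 4.3.3 (quasi-likelihood test, TMM factors, Benjamini-Hochberg adjustment over all genes tested, calls at an adjusted p under 0.05), with the 12 libraries aged 9 months in one model and the other comparisons on their own groups. Standard errors follow from the F statistic. CPM levels use TMM factors over all 33 libraries, as mean ± SD, and levels of genes are compared per kilobase of exons. A count of 0 allows up to 3 reads, and these limits cover counting error only, since the chemistry has no molecular identifiers. Growth notes mention isolation from each brain, but no label ties a library to an animal, so p-values measure the spread between libraries, which may be technical.

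The members, the gene lists and the tests were chosen with earlier results of these data known. Named are the 5 members with Irf8 and Spi1, from the pathway list the 2 called genes that rose most and the 2 that fell most at 5 CPM or more, and any others that complete a count. One gene of the pathway list is not reported here. Genes most alike are the 3 with the highest Pearson's r over group means of log2 CPM, among those with a mean of 5 CPM. Alternatives were DESeq2 1.42.0 (size factors and Wald test), voom of limma 3.58.1 with quality weights, no filter, all libraries in one model, only the 2 groups compared, a replicate block, a neutrophil covariate, each library left out and, added after the data were seen, library sizes without TMM factors. The edgeR step was tested on simulated counts.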

Additional observations from a re-analysis of the deposited data

Results flagged for a closer look

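Cyba in IRF8KO replicate 2 at 3 months stood apart from the other 3 libraries of its group, at 2082 CPM against 1171, 1085 and 1091. That library also had the highest sum of neutrophil markers, 207588 CPM against 83111 to 117910. Such a gap is flagged by chance in about 1 of 20 groups of this size.

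For 3 differences between effects the difference itself passed the test. The effect of IRF8KO on Cybb was larger at 9 months than at 3 months by 4.52 on the log2 scale, and that on Ncf1 differed by -1.43. The effect on Ncf1 in the conditional experiment differed from that of the germline deletion by -1.80. The knockout groups held neutrophil marker RNA at both ages, and the WT libraries did so at 3 months (9448 to 66021 CPM) and hardly at 9 months (0.425 to 2.07 CPM). In the conditional experiment these markers summed to 113 CPM or less in every library.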

How the results depend on the processing

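The calls of Cybb in the 3 comparisons with germline Irf8 deletion, and of Ncf4 and Rac2 in the 2 at 9 months, held under every alternative run, with log2 changes of Cybb of 2.76 to 4.1 at 3 months, 7.64 to 8.59 at 9 months and 8.28 to 9.39 in 5xFAD. In IRF8KO at 3 months, 4 members were called with all 33 libraries in one model and 1 with the neutrophil covariate. In 5xFAD against WT 0 were called without TMM factors, 2 by DESeq2, 3 by limma voom, 2 without the filter and 3 from the 2 groups alone. In Batf3KO 2 were called by DESeq2, 2 without the filter and 0 with all libraries in one model. For the conditional against the germline effect DESeq2, limma voom and the fit without the filter each called 2. With each library left out in turn, the number called was 0 to 2 in 5xFAD against WT, 0 to 1 in Batf3KO, 0 to 1 in Cre against flox and 1 to 3 for 9 against 3 months. The number of all genes called ranged widely under the other settings and with a library left out, from 305 to 3300 in IRF8KO at 3 months, 2266 to 6836 at 9 months, 2 to 4546 in 5xFAD against WT, 2325 to 6783 without Irf8 in 5xFAD, 0 to 1452 between the IRF8KO groups at 9 months, 2 to 1082 for the interaction, 10 to 998 in Batf3KO and 0 to 952 in Cre against flox. It was 2191 to 6342 for 9 against 3 months, 471 to 2162 for the conditional against the germline effect and 3908 to 7947 between the WT groups.

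Signs turned only for changes that were not called. Without TMM factors, which moved the median of all genes by -0.38 in IRF8KO at 9 months and by -0.22 in 5xFAD, the log2 difference was -0.02 for Cyba and -0.09 for Ncf1 in IRF8KO at 9 months, -0.13 for Ncf1 in 5xFAD, 0.21 for Ncf4 in the interaction (0.16 by limma voom) and -0.11 for Ncf4 between 9 and 3 months. In Batf3KO Ncf4 was at -0.03 by limma voom and -0.06 with all libraries in one model, where Rac2 was at -0.00. With each library left out, Ncf1 in IRF8KO at 9 months ran from -0.13 to 0.36, Cybb in 5xFAD from -0.39 to 0.8, Cybb in the interaction from -0.05 to 1.16 and Ncf4 there from -0.25 to 0.1. In Batf3KO Ncf4 ran from -0.07 to 0.05 and Rac2 from -0.00 to 0.11, in Cre against flox Ncf1 ran from -0.25 to 0.05 and Rac2 from -0.03 to 0.18, and Ncf4 in the conditional against the germline effect ran from -0.75 to 0.06. Group levels that moved by more than their SD without TMM factors were Cyba (665 CPM), Ncf1 (535), Ncf4 (136) and Rac2 (236) in WT at 9 months, Ncf1 in IRF8KO at 3 months (665) and Rac2 in flox (329).

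Same-numbered libraries deviated together with correlations of -0.16 to 0.167, not over 0.1 in every pair of any comparison, so the numbers were not taken as pairs. With the replicate number as a block, 0 members were called in Batf3KO, where Ncf1 was at 0.32 (adjusted p = 0.129), Rac2 was at -0.04 in Cre against flox, and no other member's call changed. The cause of these shifts was not tested. Depth limits Cybb above all, with 32 reads in WT at 9 months and 9 in flox.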
